A study of Mus musculus with 2 samples.

Results

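Bone mineral forms where phosphate is released and pyrophosphate is removed next to a matrix of acidic proteins that bind calcium. Levels of 10 mouse genes of that process are described on the arrays of an adipocytic and an osteoblastic bone marrow stromal line, out of 22446 genes that the array table names. They were taken by symbol: the matrix proteins *Ibsp*, *Spp1*, *Dmp1*, *Mepe* and *Bglap*, the enzymes *Alpl*, *Phospho1* and *Enpp1*, the phosphate transporter *Slc20a1* and the endopeptidase *Phex*. Of these, 8 had probe sets of their own. For *Bglap* the array has only a probe set that also reads *Bglap2* and *Bglap3*, and for *Phospho1* only one that also reads *Zfp652*.

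BMSC-Adipo (labelled mMSC-Adipo) and BMSC-Osteo (labelled mMSC-Bone) are stromal lines of mouse bone marrow. Each is a single clone that became immortal by itself in culture, and each was named for the cell type, fat or bone, that it forms. Both have a C57BL/6 background and carry a Beta-actin-GFP transgene and an ApoE null genotype, and both were grown in DMEM with 12% FBS per the labels and collected before any induction of differentiation. Each line is represented by 1 array, hybridised with RNA pooled from its replicate cultures, 8 ug per labelling reaction. With 1 array per line there is no replicate spread and no test, so every difference below compares those 2 arrays by size alone, and lineage cannot be told apart from what is particular to a clone.

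The authors' deposited values are log2 levels made by robust multiarray averaging (RMA), a method that corrects background, brings arrays to a common distribution and joins the probes of each probe set. Differences are given as BMSC-Adipo minus BMSC-Osteo, so a positive value means higher in BMSC-Adipo, and 1 unit is 2-fold. Where a gene had several probe sets, the brightest over both arrays stands for it. Genes with a mean level at or above the 30th percentile of genes, 4.20, were kept, 14497 of 20706. Their median difference was -0.03. The labelled identities were set beside marker lists. Of 5 adipocyte markers past this filter, 5 exceeded 2-fold toward BMSC-Adipo, beside 7.88% of all genes past it. Of 6 osteoblast markers, 4 exceeded it toward BMSC-Osteo, among them the osteoblast transcription factor *Sp7* (-2.30), beside 6.68% of all genes. *Adipoq* (3.16) and *Fabp4* (3.30) in BMSC-Osteo and *Bmp2* (3.29) in BMSC-Adipo were under the filter level. Each of them passed the filter only through its level in the other line, so their calls are not read as support. *Runx2*, which acts upstream of *Sp7*, was at 10.4 in BMSC-Adipo and 10.2 in BMSC-Osteo.

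As background, alkaline phosphatase (encoded by *Alpl*) splits pyrophosphate, an inhibitor of mineral growth, into phosphate, and the phosphatase PHOSPHO1 releases phosphate from phosphocholine and phosphoethanolamine inside matrix vesicles. ENPP1 makes pyrophosphate from extracellular ATP. The acidic phosphoproteins of bone, bone sialoprotein, osteopontin, DMP1 and MEPE, come from neighbouring genes of a single family and either seed mineral or hold it back, while PHEX on osteoblasts and osteocytes degrades mineral-binding peptides and limits the phosphate-lowering hormone FGF23.

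The members did not share a direction. Among the 7 members with an own probe set past the filter, *Ibsp*, *Alpl* and *Slc20a1* (3 genes) were at least 2-fold higher in BMSC-Osteo, where 6.68% of all genes past the filter were. *Enpp1* and *Dmp1* (2 genes) were at least 2-fold higher in BMSC-Adipo, where 7.88% of all genes were. *Spp1* and *Mepe* lay within 2-fold. *Phex* was below the filter. Either way this is 5 of 7 genes, and 14.6% of all genes. The middle difference of the 7 genes was that of *Mepe* itself (-0.40), beside a median of -0.03 for all genes. *Mepe* passed the filter only through its level in BMSC-Osteo, so nothing is read from that value. Of the 18 probe sets that read any member, 8 had the higher level in BMSC-Adipo and 10 in BMSC-Osteo. They include the shared sets of *Bglap* and *Phospho1*, and sets of *Phex* and *Dmp1* under the filter. No such tally was made over all probe sets, so nothing is read from it. For *Ibsp*, *Enpp1*, *Slc20a1* and *Dmp1*, the probe sets past the filter lay on the same side within each gene.

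**Figure D1:**
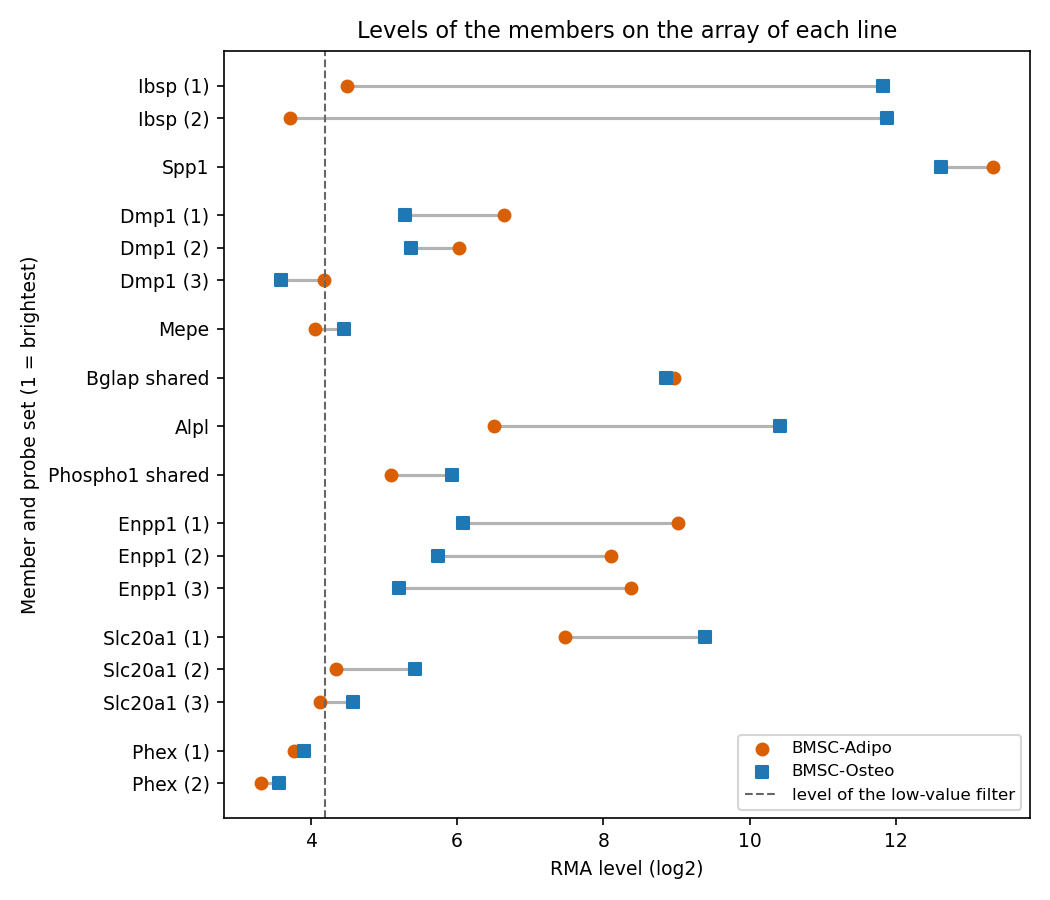
RMA level (log2, x axis) of every probe set of the 10 members (y axis, brightest first within a gene) on the BMSC-Adipo array (circles) and the BMSC-Osteo array (squares), with 1 array per line. Ibsp shows the widest gap, with 4.49 in BMSC-Adipo against 11.8 in BMSC-Osteo for its brightest probe set, Enpp1 lies the other way in 3 of 3 probe sets, and Phex stays left of the dashed filter level of 4.20 on both arrays.

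*Ibsp* encodes bone sialoprotein, an acidic protein of mineralizing bone that nucleates hydroxyapatite and binds integrins through an RGD motif. Its brightest probe set had a level of 4.49 in BMSC-Adipo and 11.8 in BMSC-Osteo, a difference of -7.34 or 161-fold. The other probe set had 3.71 in BMSC-Adipo and 11.9 in BMSC-Osteo, a difference of -8.17. On the BMSC-Adipo array these levels stood at the 42.6th and 29.3rd percentiles of all probe sets, and on the BMSC-Osteo array at the 99.0th and 99.1st. Only 1 gene past the filter had a larger difference toward BMSC-Osteo. The files hold no detection calls, so whether *Ibsp* was above background in BMSC-Adipo is not known. Wherever a level on 1 array is under 4.20, the direction is read and the size of the difference is taken as uncertain. Percentiles place a probe set on its own array and do not rank transcripts by abundance, since probe sets bind with different strength. As the RNA is from a whole culture, fewer cells making a transcript and less of it per cell cannot be told apart, here and below.

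*Spp1* encodes osteopontin, a phosphorylated protein of bone matrix that also carries an RGD motif and restrains crystal growth, and which many cells outside bone secrete. Its level was 13.3 in BMSC-Adipo and 12.6 in BMSC-Osteo, a difference of 0.71 or 1.64-fold, at the 99.9th percentile of the BMSC-Adipo array and the 99.6th of the BMSC-Osteo array. Its signal was thus high on both arrays, and the difference between them was less than 2-fold.

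The promoters of *Ibsp* and *Spp1* are shown because these genes lie in the same cluster and stood apart on the arrays. Each window holds 250 bases before and 50 after an annotated start in RefSeq (build GRCm38.p6), at chr5:104299037-104299336 on the + strand for *Ibsp* and chr5:104434861-104435160 on the + strand for the upstream of the annotated *Spp1* starts. Capitals mark matches on either strand to the RUNX core ACCACA, the AP-1 site TGACTCA, the cyclic AMP element core TGACGT, the TATA box TATAAA, the CCAAT box by those letters, the Sp site GGGCGG and the homeodomain core TAATTA. In these windows no match overlapped a match to another motif.
Ibsp: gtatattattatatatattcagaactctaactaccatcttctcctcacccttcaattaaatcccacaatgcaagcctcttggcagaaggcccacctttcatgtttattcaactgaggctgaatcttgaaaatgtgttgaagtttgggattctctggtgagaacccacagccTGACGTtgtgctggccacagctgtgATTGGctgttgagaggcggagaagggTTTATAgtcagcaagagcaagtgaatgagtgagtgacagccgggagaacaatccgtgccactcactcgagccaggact
Spp1: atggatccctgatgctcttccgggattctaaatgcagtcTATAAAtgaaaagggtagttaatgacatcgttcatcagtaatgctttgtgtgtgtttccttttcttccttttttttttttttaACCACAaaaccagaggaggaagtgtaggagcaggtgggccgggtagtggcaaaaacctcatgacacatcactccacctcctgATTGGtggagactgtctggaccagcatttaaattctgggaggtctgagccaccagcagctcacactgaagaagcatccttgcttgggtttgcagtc
The *Ibsp* window held TGACGT at position -79, CCAAT on the minus strand at -54 and TATAAA on the minus strand at -28, counted to the left end of the match from the start site. It held no ACCACA. The *Spp1* window held ACCACA at -128, CCAAT on the minus strand at -46 and TATAAA at -211. Over 32817 promoters of the same length, TGACGT was found in 7.51%, CCAAT in 37.4%, TATAAA in 13.6% and ACCACA in 16.8%. These are matches of letters only, and nothing here measured binding.

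*Dmp1* encodes an acidic phosphoprotein made mainly by osteocytes, and the signal of its probe sets was higher in BMSC-Adipo. Its brightest probe set had 6.65 in BMSC-Adipo and 5.30 in BMSC-Osteo, a difference of 1.35 or 2.55-fold. The other probe sets had 6.03 in BMSC-Adipo and 5.37 in BMSC-Osteo, and 4.18 in BMSC-Adipo and 3.60 in BMSC-Osteo. The last of these lies under the filter on both arrays. Their differences of 0.66 and 0.59 are below 2-fold, so the call rests on the brightest probe set, and with the mean of the probe sets (0.86) *Dmp1* is not called. *Mepe*, which encodes another matrix phosphoprotein of osteocytes, had 4.06 in BMSC-Adipo and 4.45 in BMSC-Osteo (-0.40), just above the filter. The osteocyte genes *Sost*, *Fgf23* and *Dkk1* were below the filter in the same table, and *Pdpn*, the early osteocyte marker podoplanin, was at 4.60 in BMSC-Adipo and 9.80 in BMSC-Osteo (-5.20).

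On chromosome 5 the RefSeq table orders these genes as *Dspp*, *Dmp1*, *Ibsp*, *Mepe* and *Spp1*, with *Sparcl1* before and *Pkd2* after them. Of these 7 genes, *Ibsp* and *Mepe* were higher in BMSC-Osteo and the others in BMSC-Adipo, most of them by less than 2-fold. *Sparcl1*, a relative of the matrix protein SPARC, had 10.7 in BMSC-Adipo and 3.10 in BMSC-Osteo (7.56), where the level in BMSC-Osteo is under the filter. *Dspp*, the dentin member of the family, was below the filter at 3.79 in BMSC-Adipo and 3.65 in BMSC-Osteo. *Pkd2*, which encodes the cation channel polycystin 2, had 11.0 in BMSC-Adipo and 10.7 in BMSC-Osteo (0.30). *Ibsp* was thus low in BMSC-Adipo between neighbours that were either low in both lines or not lower in BMSC-Adipo.

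**Figure D2:**
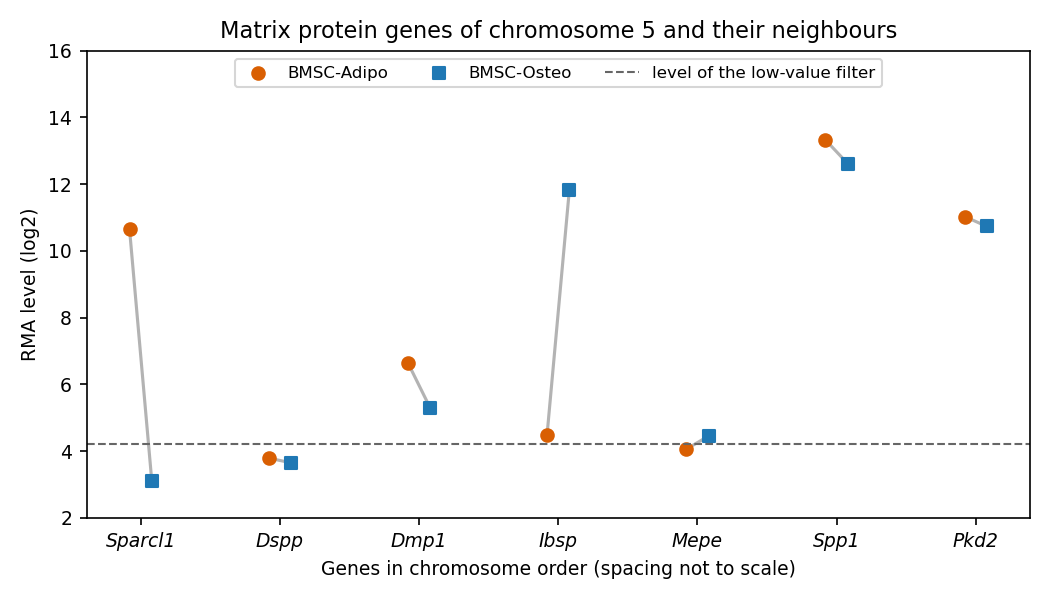
RMA level (log2, y axis) of the phosphoprotein genes of chromosome 5 and a neighbouring gene on each side, in chromosome order (x axis, spacing not to scale), in BMSC-Adipo (circles) and BMSC-Osteo (squares), with 1 array per line. Sparcl1 (difference 7.56) and Ibsp (-7.34) stand apart in opposite directions, while Spp1 and Pkd2 are high in both lines and Dspp lies under the dashed filter level.

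Osteocalcin, the vitamin K dependent protein of mature osteoblasts, had no probe set of *Bglap* alone. The set shared by *Bglap*, *Bglap2* and *Bglap3* had 8.96 in BMSC-Adipo and 8.86 in BMSC-Osteo (0.10), so the signal of that set was bright and nearly equal on both arrays. Which of the genes gave the signal cannot be told apart.

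Of the enzymes, *Alpl* and *Enpp1*, whose products remove and make pyrophosphate, differed in opposite directions. *Alpl* had 6.50 in BMSC-Adipo and 10.4 in BMSC-Osteo, a difference of -3.92 or 15.1-fold from its single probe set, and 53 genes past the filter had a larger difference toward BMSC-Osteo. *Enpp1* had 9.02 in BMSC-Adipo and 6.09 in BMSC-Osteo, a difference of 2.93 or 7.62-fold, and 146 genes had a larger difference toward BMSC-Adipo. The other probe sets of *Enpp1* differed by 2.36 and 3.17. *Phospho1*, through the set it shares with *Zfp652*, had 5.09 in BMSC-Adipo and 5.94 in BMSC-Osteo (-0.84), within 2-fold, and the share of either gene in that signal is not known. At the stricter size of 4-fold, *Ibsp* and *Alpl* remained on the side of BMSC-Osteo, where 1.99% of all genes were, and *Enpp1* on the side of BMSC-Adipo, where 2.27% were. Either way this is 3 of 7 genes, and 4.26% of all genes.

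The promoters of *Alpl* and *Enpp1* are shown for this pair, with capitals as above. They lie at chr4:137796335-137796634 on the - strand, the upstream of the *Alpl* starts in RefSeq, and at chr10:24712110-24712409 on the - strand (GRCm38.p6).
Alpl: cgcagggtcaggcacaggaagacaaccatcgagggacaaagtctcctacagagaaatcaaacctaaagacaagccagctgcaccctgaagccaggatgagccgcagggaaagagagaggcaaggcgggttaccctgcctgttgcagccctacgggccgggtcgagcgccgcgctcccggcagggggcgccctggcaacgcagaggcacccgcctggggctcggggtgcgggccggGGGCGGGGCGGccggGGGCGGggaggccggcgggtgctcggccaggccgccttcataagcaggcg
Enpp1: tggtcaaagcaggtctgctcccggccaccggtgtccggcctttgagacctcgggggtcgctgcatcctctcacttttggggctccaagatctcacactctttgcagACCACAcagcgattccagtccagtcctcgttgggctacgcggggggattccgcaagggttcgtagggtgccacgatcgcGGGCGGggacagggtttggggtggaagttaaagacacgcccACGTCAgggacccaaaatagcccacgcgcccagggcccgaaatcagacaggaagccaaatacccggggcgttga
The *Alpl* window held 3 matches to GGGCGG, at -15, -10 and 1, of which the first and the second overlap. The *Enpp1* window held ACCACA at -144, GGGCGG at -65 and TGACGT on the minus strand at -24. GGGCGG was found in 35.6% of all promoters. The bases G and C made up 70.0% of the *Alpl* window and 61.7% of the *Enpp1* window, against 46.3% for *Ibsp*, 45.3% for *Spp1* and a median of 52.7% over all promoters.

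*Slc20a1* encodes PiT-1, a sodium-dependent phosphate importer. Its brightest probe set had 7.47 in BMSC-Adipo and 9.40 in BMSC-Osteo, a difference of -1.92 or 3.80-fold. The dimmer sets differed by -1.08 (4.35 in BMSC-Adipo and 5.43 in BMSC-Osteo) and -0.44 (4.14 in BMSC-Adipo and 4.58 in BMSC-Osteo), in the same direction. *Phex* had levels of 3.77 and 3.32 in BMSC-Adipo and of 3.91 and 3.57 in BMSC-Osteo for its probe sets. Both lie under the filter, so no difference is read from it.

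**Figure D3:**
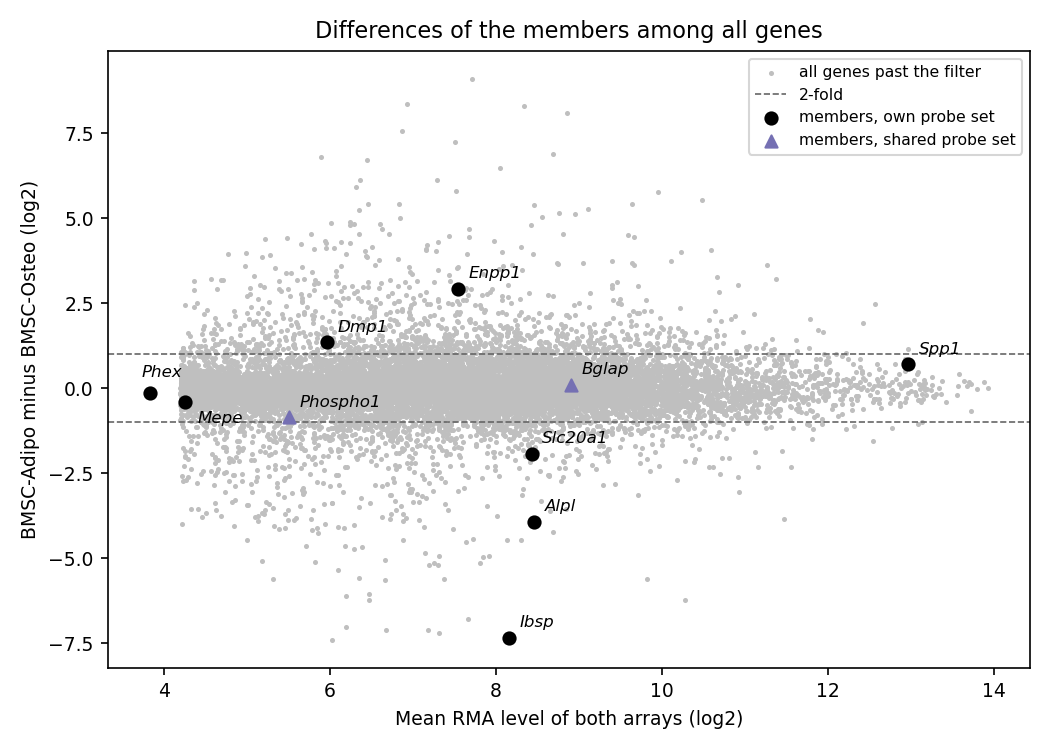
Difference in log2 level (y axis, BMSC-Adipo minus BMSC-Osteo) against the mean level of both arrays (x axis, log2) for 14497 genes past the filter (grey) and the 10 members (black circles for own probe sets, triangles for shared ones), with 1 array per line. Ibsp (-7.34) and Alpl (-3.92) lie far below the lower 2-fold line, Enpp1 (2.93) lies above the upper one, and Spp1 lies at the bright end within 2-fold.

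Around these members, 47 other genes of matrix, pyrophosphate and phosphate handling were listed, and 39 passed the filter. At least 2-fold higher in BMSC-Adipo were 5 of the 39, beside 7.88% of all genes, and in BMSC-Osteo 7, beside 6.68% of all genes. The median difference was 0.04. Of the 7, *Galnt3* passed the filter only through BMSC-Osteo, so its call is not read as support. *Pth1r*, also among them, is an osteoblast marker of the list used above, so the counts are not separate. Among matrix genes, *Tnn*, a tenascin, had 4.70 in BMSC-Adipo and 9.91 in BMSC-Osteo (-5.21), and *Smpd3*, a neutral sphingomyelinase whose loss in mice impairs bone mineralization, had 6.22 in BMSC-Adipo and 7.71 in BMSC-Osteo (-1.50), and its 3 probe sets ran between -1.65 and -1.50. *Mgp*, matrix Gla protein, an inhibitor of calcification, was on the other side, with 13.6 in BMSC-Adipo and 12.4 in BMSC-Osteo (1.17). *Sparc*, osteonectin, had 12.6 in BMSC-Adipo and 13.6 in BMSC-Osteo (-0.99), just within 2-fold, and its probe sets ran between -1.28 and 0.03.

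Other pyrophosphate and nucleotide genes lay on both sides as well. *Enpp3*, an enzyme of the same family as *Enpp1*, had 8.72 in BMSC-Adipo and 4.93 in BMSC-Osteo (3.80), although its 5 probe sets ranged between 0.19 and 5.34. *Ank*, which exports ATP and pyrophosphate, had 11.1 in BMSC-Adipo and 10.2 in BMSC-Osteo (0.90), within 2-fold. *Nt5e*, CD73, which turns AMP into adenosine and phosphate, had 5.68 in BMSC-Adipo and 9.09 in BMSC-Osteo (-3.42), the largest difference among its 3 probe sets, the smallest being -0.69. The inorganic pyrophosphatase *Ppa1* (-0.93) and *Enpp2* (-0.52), which makes lysophosphatidic acid, lay within 2-fold.

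Unlike the member *Slc20a1*, the phosphate transporters of the list that passed the filter were nearly level by their brightest probe sets. *Slc20a2*, PiT-2, had 7.91 in BMSC-Adipo and 7.47 in BMSC-Osteo (0.44). The phosphate exporter *Xpr1* had 9.21 in BMSC-Adipo and 9.17 in BMSC-Osteo (0.03), although 1 of its 7 probe sets differed by 1.97. *Slc34a2* differed by 0.12, and the kidney cotransporters *Slc34a1* and *Slc34a3* were below the filter. Genes of the hormones that govern phosphate differed more. *Pth1r*, the parathyroid hormone receptor, had 5.42 in BMSC-Adipo and 9.55 in BMSC-Osteo (-4.13). *Galnt3*, which glycosylates FGF23, had 3.86 in BMSC-Adipo and 8.50 in BMSC-Osteo (-4.64), the largest difference among its 3 probe sets, the smallest being -0.53, and its level in BMSC-Adipo is under the filter. *Fgfr1*, an FGF23 receptor, had 8.46 in BMSC-Adipo and 9.52 in BMSC-Osteo (-1.06), and its 3 probe sets ran between -1.06 and -0.20. *Vdr*, the vitamin D receptor, had 6.81 in BMSC-Adipo and 5.004 in BMSC-Osteo (1.81), and 1.87 in its other probe set. *Kl* and *Fgf23* were below the filter.

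Enzymes that modify or cut matrix proteins were mostly level. Of 8, only *Mme*, the endopeptidase neprilysin, passed 2-fold, with 9.91 in BMSC-Adipo and 8.38 in BMSC-Osteo (1.53). *Fam20c*, the secretory kinase that phosphorylates these matrix proteins, had 7.30 in BMSC-Adipo and 6.97 in BMSC-Osteo (0.32). *Vkorc1* (-0.90) and *Ggcx* (-0.25) of the vitamin K cycle lay within 2-fold, although the other probe set of *Ggcx* was at 0.91. Of 6 genes of matrix vesicles and calcium or proton handling past the filter, only *Car2*, carbonic anhydrase 2, was called, with 8.39 in BMSC-Adipo and 4.51 in BMSC-Osteo (3.88). *Atp2b1* (0.80) was not called, although its probe sets ran between 0.72 and 1.19. Annexins differed by less than 2-fold. Among 6 receptors of the RGD proteins, *Cd44*, which also binds osteopontin, had 9.36 in BMSC-Adipo and 11.4 in BMSC-Osteo (-2.09), with a dim probe set at 0.09, and the integrin subunits *Itgav*, *Itgb1*, *Itgb3*, *Itgb5* and *Itga5* lay within 2-fold.

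**Figure D4:**
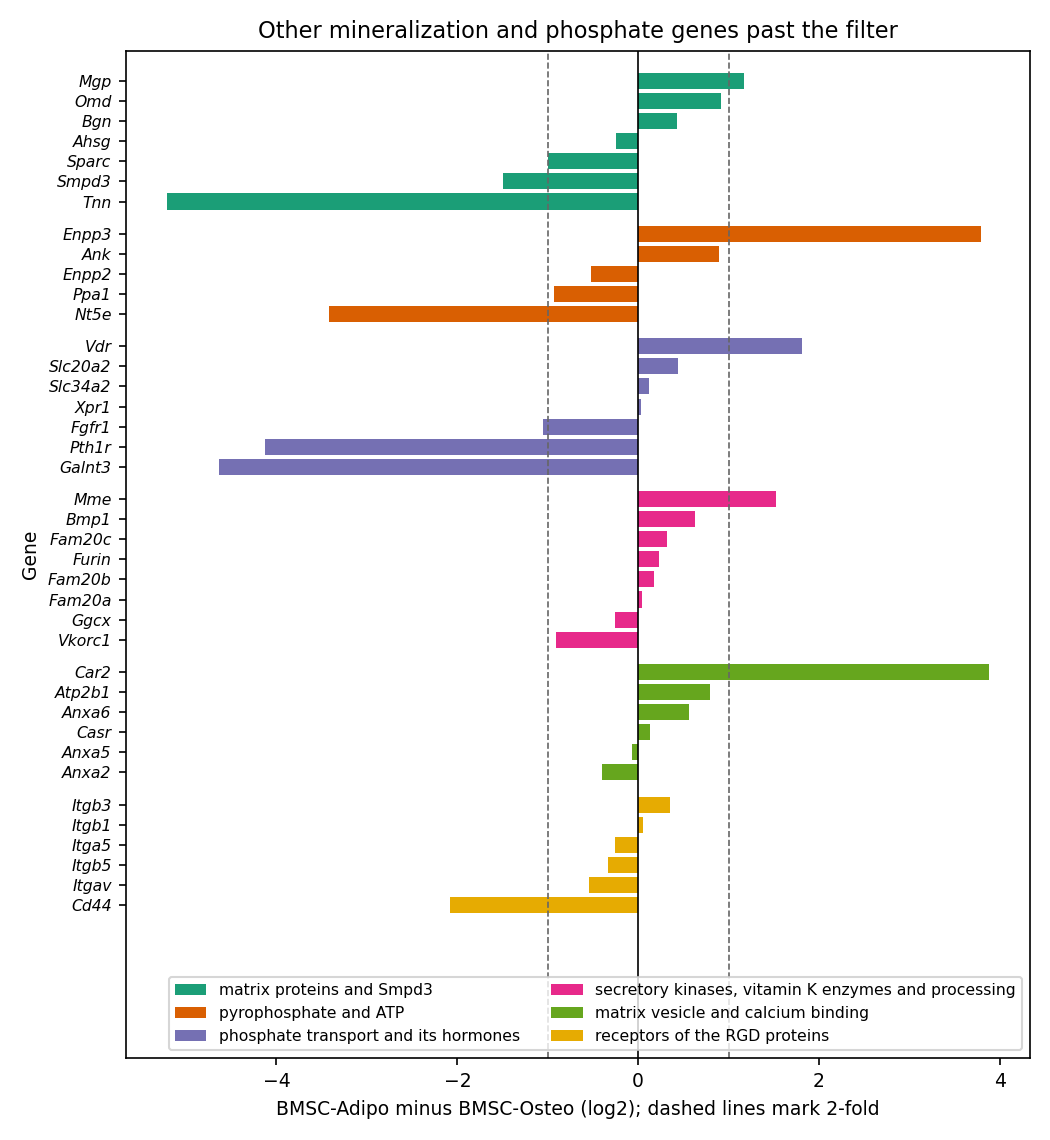
Difference in log2 level (x axis, BMSC-Adipo minus BMSC-Osteo) of the 39 listed genes past the filter (y axis), coloured by role and ordered within each role, with 1 array per line. In BMSC-Osteo, Tnn (-5.21), Galnt3 (-4.64), Pth1r (-4.13) and Nt5e (-3.42) are highest relative to BMSC-Adipo, Car2 (3.88) and Enpp3 (3.80) lie the other way, and most bars end inside the dashed 2-fold lines.

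Some members are also made by cells other than osteoblasts, so markers of such cells are given beside them. Of 4 chondrocyte markers, only *Col10a1*, the collagen of hypertrophic cartilage, was at least 2-fold higher in BMSC-Adipo (7.03, against 4.27 in BMSC-Osteo). *Sox9* had 6.92 in BMSC-Adipo and 6.75 in BMSC-Osteo. *Acan* (0.12) and *Col2a1* (-0.52) lay within 2-fold, with levels between 4.44 and 5.13. The summed linear level of the 4 markers was 309 in BMSC-Adipo and 191 in BMSC-Osteo, a gap that comes mostly from *Col10a1*. Of 4 osteoclast markers, *Acp5*, *Calcr* and *Ocstamp* were below the filter, and *Ctsk* was at 10.7 in BMSC-Adipo and 10.1 in BMSC-Osteo, so that the list summed to 1753 in BMSC-Adipo and 1122 in BMSC-Osteo. Of 3 macrophage markers, *Cd68* was higher in BMSC-Adipo (5.40, against 3.99 in BMSC-Osteo), *Csf1r* had 5.73 in BMSC-Adipo and 6.05 in BMSC-Osteo (-0.32, with a probe set at -1.30), *Adgre1* had equal levels of 4.22, and the list summed to 114 in BMSC-Adipo and 101 in BMSC-Osteo. *Ptprc*, the common leukocyte antigen, was below the filter. RMA gives no value of 0, and the part of such cells or states in the levels of the members was not tested.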

How the data were processed

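RNA of BMSC-Adipo and BMSC-Osteo was measured on 2 Affymetrix expression arrays, 1 per line. The authors deposited log2 levels of 45101 probe sets, made by RMA with the oligo package, of a version not given in the sources used here, as is the genome build. The series matrix holds the same values (largest gap 0). A column of the authors' own log2 fold changes, which run BMSC-Osteo minus BMSC-Adipo and so have the opposite sign, was not used. The median level was 5.01 in BMSC-Adipo and 5.02 in BMSC-Osteo. RMA forces both arrays to nearly 1 distribution, and low levels include background, which understates large differences. The number of arrays limits the precision.

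Of the probe sets, 64 controls, 5368 without a gene and 1479 with several genes were left out of counts, which left 38190. Each gene took its brightest probe set, and genes at or above the 30th percentile of the mean level were kept. A difference was called at 2-fold, with no p-value. The members and lists were chosen with earlier results of these data known. Named were all members, listed genes past 2-fold, and *Sparc*, *Mgp*, *Ank*, *Slc20a2*, *Xpr1* and *Fam20c*, with others given where a role called for them. Promoters came from RefSeq tables (GRCm38.p6), which held all 10 members. The counting was tested on simulated data. Alternatives were other probe set choices, filters and size rules, subtraction of the median or of a loess curve (span 0.3), the series matrix and an offset of 32. Calculations used Python 3.11.15, numpy 2.4.6, pandas 2.3.3, statsmodels 0.14.6 and matplotlib 3.10.9.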

Additional observations from a re-analysis of the deposited data

How the results depend on the processing

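Under the 87 alternative values computed for the members, no member changed direction, but many of these values could not do so. The filters and the series matrix reuse the same difference, and the offset keeps the order of the 2 arrays. A member with 1 probe set has no other choice of probe set. The kept directions are therefore not read as support. A member was taken as moved when its difference shifted beyond 0.399, the SD of probe sets within genes, pooled, and a count when it shifted beyond 1.5 times. A median was taken as moved when it shifted beyond that SD divided by the square root of the number of genes. With the mean of probe sets, the difference was -7.75 for *Ibsp*, 0.86 for *Dmp1* and -1.15 for *Slc20a1*. The probe set with the lowest difference gave -8.17 for *Ibsp*, 0.59 for *Dmp1* and 2.36 for *Enpp1*, and the highest gave -0.44 for *Slc20a1*. With 32 added on the linear scale, which damps low levels, it was -6.07 for *Ibsp*, 0.89 for *Dmp1*, -3.52 for *Alpl* and 2.46 for *Enpp1*. Members at least 2-fold higher in BMSC-Adipo numbered 1 with the mean, with the lowest probe set difference, at 4-fold and with the offset, since *Dmp1* was lost each time. Those higher in BMSC-Osteo numbered 2 with the highest probe set difference and at 4-fold, since *Slc20a1* was lost. That shift from 3 does not exceed 1.5 times, so it was not taken as moved. The median of the members was -0.61 with a filter at the 50th percentile, which leaves out *Mepe*, and -0.15 with the offset. Of the other listed genes, 9 were higher in BMSC-Adipo at 1.5-fold and 2 at 4-fold, and 3 were higher in BMSC-Osteo with the highest probe set difference. Their median was -0.076 with the lowest and 0.23 with the highest probe set difference. Over all genes, those higher in BMSC-Adipo numbered 733 with the lowest probe set difference, 2336 at 1.5-fold and 329 at 4-fold, and those higher in BMSC-Osteo 620 with the highest probe set difference, 2096 at 1.5-fold, 289 at 4-fold and 644 with the offset. No paired analysis was possible because each line has 1 array.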

Other observations

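The gene annotation in the deposited table carries gene ontology terms, and those for mineralization, ossification and phosphate were read after the values were known. Leaving out the members, 24 genes annotated to bone mineralization were past the filter. Of these, 4 were at least 2-fold higher in BMSC-Adipo and 7 in BMSC-Osteo, with a median of -0.13. Either way 45.8% passed 2-fold, beside 14.6% of all genes, and the shares were not tested. *Bmp2* is among the 7, though it passed the filter only through BMSC-Osteo, so its call is not read as support. Not every related term leaned the same way. Of 69 genes for ossification, 9 were higher in BMSC-Adipo and 8 in BMSC-Osteo (24.6%, median 0.06). Of 13 for regulation of bone mineralization, 3 were higher in BMSC-Adipo and 1 in BMSC-Osteo (30.8%, median 0.31). Positive regulation, given below, had more genes on the side of BMSC-Osteo. None of 5 genes for phosphate ion transport and none of 3 for phosphate ion homeostasis passed 2-fold. Under the term bone mineralization, the 4 genes higher in BMSC-Adipo were *Mmp13*, *Rspo2*, *Tcf7l2* (1.96) and *Mtss1* (1.88). *Mmp13*, a collagenase of bone and hypertrophic cartilage, had 12.8 in BMSC-Adipo and 7.06 in BMSC-Osteo, a difference of 5.78. The Wnt amplifier *Rspo2* had 12.2 in BMSC-Adipo and 8.23 in BMSC-Osteo (4.02). On the side of BMSC-Osteo under the same term were *Pth1r*, *Bmp2* (-3.43), *Ptgs2* (-3.15), *Ptn* (-2.43), *Axin2* (-1.46), *Wnt11* (-1.11) and *Ifitm5*. *Ifitm5*, a membrane protein known mainly from osteoblasts, had 5.05 in BMSC-Adipo and 7.37 in BMSC-Osteo (-2.32). These genes were named after their values were seen.

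Of 11 other genes annotated to negative regulation of bone mineralization and past the filter, *Grem1*, a BMP antagonist, had 10.5 in BMSC-Adipo and 7.75 in BMSC-Osteo (2.79), and *Ltbp3* differed by 1.37. None was at least 2-fold higher in BMSC-Osteo, the median was 0.24, and 18.2% passed 2-fold either way, beside 14.6% of all genes. Of 26 annotated to positive regulation, 3 were at least 2-fold higher in BMSC-Adipo, with *Gpm6b* (3.70) first, and 5 in BMSC-Osteo, with *Mef2c* (-3.70) and *Fbn2* (-3.67) first. The median of those 26 was 0.04, and 30.8% passed 2-fold either way. *Bmp2* (3.29), *Fbn2* (3.35) and, among the ossification genes, *Mmp16* (4.16) were under the filter level in BMSC-Adipo, so the sizes of their differences are uncertain. They passed the filter only through BMSC-Osteo, so their calls are counted in these shares but not read as support. The terms overlap, and *Bmp2* stands among the genes for bone mineralization, its positive regulation and ossification.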
